A study of Mus musculus with 8 samples.

Results

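Mitf and 8 genes of the melanocyte lineage (Gpnmb, Dct, Tyrp1, Mlana, Kit, Kitl, Sox10 and Ednrb) were followed through 3 sorted populations of basal keratinocytes of the mouse dorsum. The members were chosen by gene symbol, after earlier results of these data had shown Mitf high in CD34+ cells, out of 16593 genes that had a probe on the array. For 7 of the 9 genes the platform annotation named at least 1 probe, giving 15 probes in all, while Kit and Sox10 had no probe under their symbols and were not analysed here. The skin came from adult Gli1-eGFP/+ mice on a Swiss Webster background that had been outcrossed, in telogen, the resting phase of the hair cycle. Every group therefore carried 1 eGFP allele at Gli1, the gene of a transcription factor that transmits hedgehog signals and is switched on by them. Each sample pooled 2 mice, and viable single cells were kept only if α6 integrin, which marks basal keratinocytes, was on their surface. GFP-positive cells formed the Gli1+ group (replicates 2 and 3; RNA of replicate 1 was too poor), GFP-negative cells with the surface protein CD34 the CD34+ group (replicates 1 to 3), and GFP-negative cells without it the IFE group (replicates 1 to 3). By the labels, IFE means mainly interfollicular epidermis together with the infundibulum of the follicle. Swiss Webster is an albino stock; the pigmentation and the Tyr genotype of these mice are not given in the sources used here.

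Mitf is a basic helix-loop-helix leucine zipper transcription factor that is required for melanocytes and is also used by mast cells, osteoclasts and the retinal pigment epithelium. In melanocytes, Sox10 switches Mitf on, the receptors Kit and Ednrb relay survival signals from the skin, and Mitf binds short E-box motifs in front of pigment genes such as Tyrp1 and Dct. The gene has several first exons, of which the most downstream one serves the melanocyte form. In hair follicles, melanocyte stem cells sit in the bulge and the secondary hair germ, next to CD34-expressing keratinocytes, which supply Kit ligand (Kitl) and other signals to them.

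The stretches in front of the start sites are shown because Mitf, Tyrp1 and Dct are linked by this motif in the literature on melanocytes, while their values here part. They are 250-base windows from RefSeq on build GRCm38.p6, which held a window for 7 of the 9 genes (10 windows). Capitals mark CATGTG on either strand (read as CACATG on the other) and TGACGTCA, a cyclic AMP response element. CACGTG was searched as well, on both strands, and no match overlapped another in these windows. The windows are Mitf at chr6:97806808-97807057, chr6:97929567-97929816 and chr6:97991533-97991782 on the plus strand, Tyrp1 at chr4:80833963-80834212 on the plus strand, Dct at chr14:118052247-118052496 on the minus strand and Gpnmb at chr6:49036268-49036517 on the plus strand.
Mitf, upstream start: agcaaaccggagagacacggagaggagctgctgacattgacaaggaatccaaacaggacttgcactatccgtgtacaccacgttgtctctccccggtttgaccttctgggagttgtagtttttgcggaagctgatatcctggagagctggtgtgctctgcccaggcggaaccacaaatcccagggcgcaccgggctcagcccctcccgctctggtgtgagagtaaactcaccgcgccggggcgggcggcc
Mitf, middle start: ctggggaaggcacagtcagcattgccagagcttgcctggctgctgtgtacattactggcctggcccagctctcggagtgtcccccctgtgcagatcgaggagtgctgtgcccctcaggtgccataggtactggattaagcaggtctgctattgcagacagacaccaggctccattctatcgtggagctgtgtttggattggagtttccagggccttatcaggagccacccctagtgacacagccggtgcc
Mitf, downstream start: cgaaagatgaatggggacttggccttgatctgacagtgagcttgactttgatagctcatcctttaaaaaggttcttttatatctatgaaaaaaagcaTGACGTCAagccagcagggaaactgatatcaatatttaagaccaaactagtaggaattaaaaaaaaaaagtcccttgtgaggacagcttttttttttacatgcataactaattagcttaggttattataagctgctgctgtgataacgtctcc
Tyrp1: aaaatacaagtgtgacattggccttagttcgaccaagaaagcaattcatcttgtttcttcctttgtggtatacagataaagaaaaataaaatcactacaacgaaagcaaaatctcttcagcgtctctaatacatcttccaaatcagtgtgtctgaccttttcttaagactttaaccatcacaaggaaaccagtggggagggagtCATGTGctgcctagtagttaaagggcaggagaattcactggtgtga
Dct: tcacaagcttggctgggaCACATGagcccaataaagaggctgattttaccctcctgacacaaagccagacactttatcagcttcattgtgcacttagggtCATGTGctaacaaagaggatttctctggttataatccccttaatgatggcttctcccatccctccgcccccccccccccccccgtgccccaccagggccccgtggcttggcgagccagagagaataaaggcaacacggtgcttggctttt
Gpnmb: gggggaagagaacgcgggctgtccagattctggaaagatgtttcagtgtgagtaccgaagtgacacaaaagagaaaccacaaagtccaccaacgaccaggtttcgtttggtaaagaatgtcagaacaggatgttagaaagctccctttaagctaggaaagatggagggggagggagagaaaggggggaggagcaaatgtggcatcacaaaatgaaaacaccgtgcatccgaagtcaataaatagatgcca
Tyrp1 held CATGTG 46 bases before its start, and Dct held it 232 and 150 bases before its start. The downstream Mitf window held TGACGTCA 153 bases before the start. The windows of Gpnmb, Kitl, Ednrb and Kit and the other Mitf windows held none of these letters. Among 32851 windows of the same length, 12.252% held CATGTG, 6.021% CACGTG and 1.546% TGACGTCA, so a match is a description of the letters only. The array had a single Mitf probe, annotated to the transcript NM_008601, and its signal does not tell the start sites apart.

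The split of CD34+ from IFE cells could be followed in the arrays, while the split by GFP was not checked here. Krt5, a keratin of basal keratinocytes, had a normalised log2 intensity of 12.15 to 12.89 on all 8 arrays. Cd34 lay at 8.50 to 8.86 on the CD34+ arrays, at 8.18 and 8.47 on the Gli1+ arrays and at 5.44 to 6.31 on the IFE arrays. Between 9925 and 12601 probes were detected per array, meaning that their signal exceeded the negative control beads at p under 0.05. Detection began at a log2 intensity between 5.08 and 5.62, depending on the array. The Gli1+ arrays stood apart from each other: their correlation across genes was 0.82, against 0.933 to 0.95 within the other groups, and Gli1+ replicate 3 had the fewest detected probes. Results that rest on these arrays are given with and without each of them where that changes the result.

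Mitf RNA was high in CD34+ cells, high but uneven in Gli1+ cells, and close to the detection limit in IFE cells. On the CD34+ arrays its normalised log2 intensity was 8.07, 8.53 and 7.95 in replicates 1, 2 and 3. On the Gli1+ arrays it was 8.14 in replicate 2 and 6.90 in replicate 3. On the IFE arrays it was 5.05, 5.06 and 5.27, and the probe was detected only in replicate 3, at a detection p of 0.0451. All 5 arrays of CD34+ and Gli1+ cells lay above all 3 IFE arrays, and Gli1+ replicate 2 fell among the CD34+ arrays while replicate 3 lay below them. Before any correction, the mean bead intensities were 382.2 to 425.7 in CD34+ cells, 448.2 and 199.6 in Gli1+ cells and 118 to 136.6 in IFE cells. The standard error over the 30 to 49 beads of a Mitf reading was at most 35.12 intensity units, which covers the technical spread within an array and not that between mice.

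**Figure D1:**
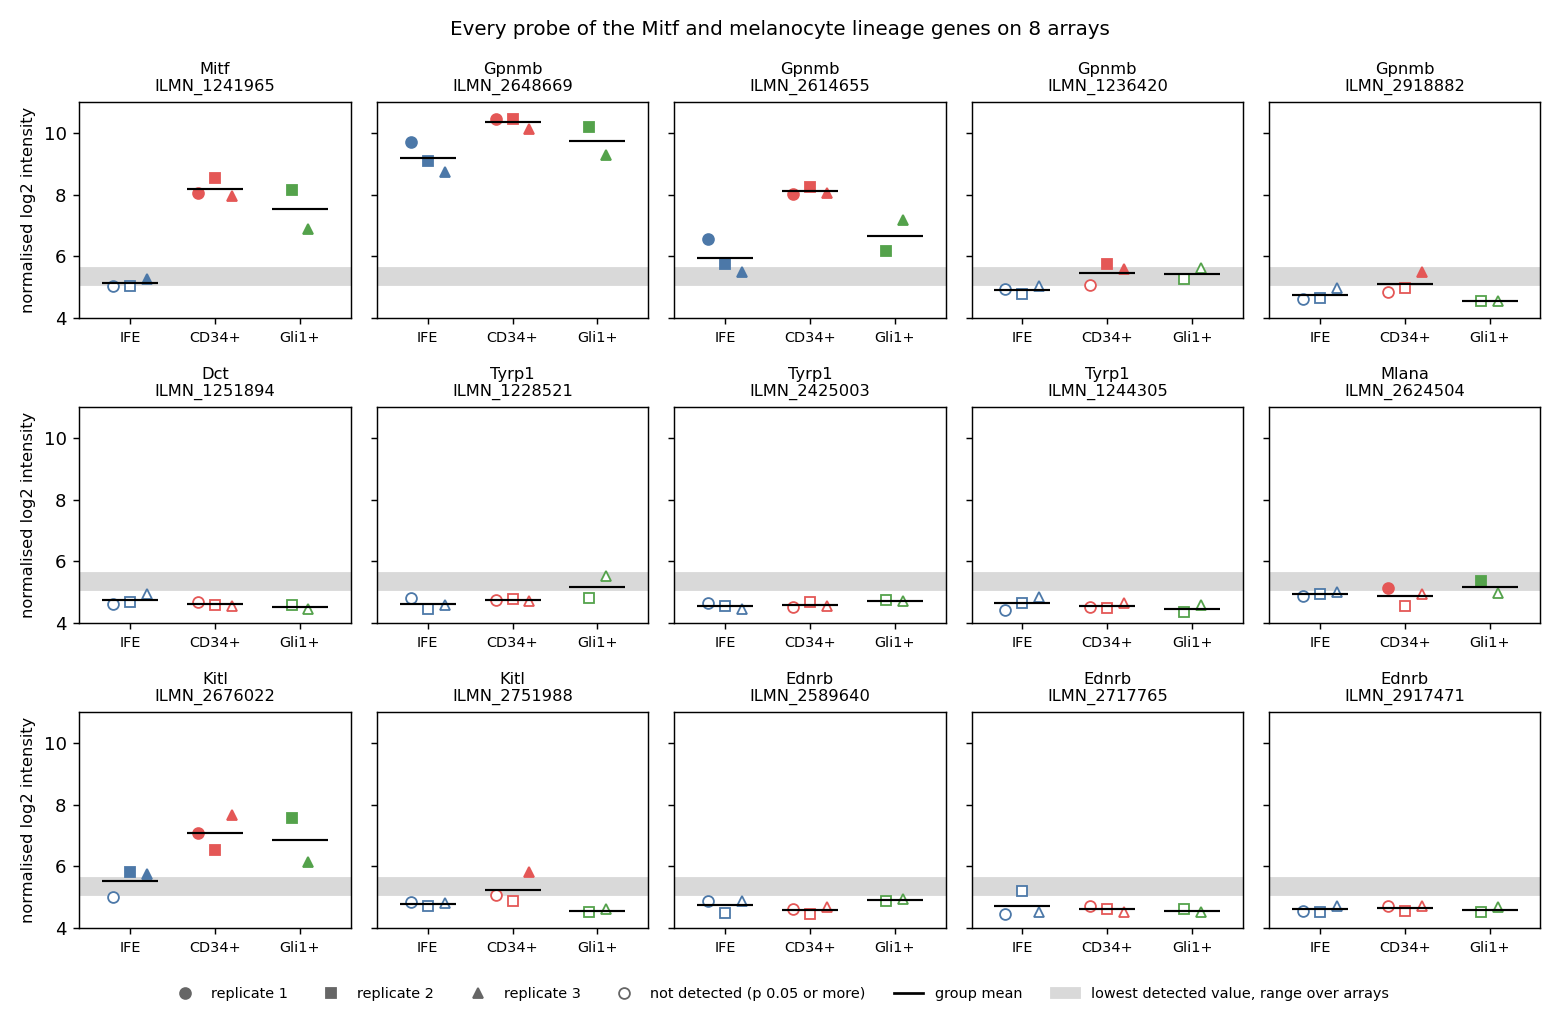
Normalised log2 intensity of all 15 probes of Mitf and the melanocyte lineage genes, 1 panel per probe, with 1 point per array, the shape giving the replicate, open points not detected and a line at each group mean. Mitf, 2 Gpnmb probes and 1 Kitl probe lie above the grey band of lowest detected values (5.08 to 5.62) on all CD34+ and Gli1+ arrays, another Gpnmb and another Kitl probe do so on 1 CD34+ array each, and the probes of Dct, Tyrp1 and Ednrb are open on every array.

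CD34+ cells held 8.30-fold more Mitf signal than IFE cells (log2 difference 3.05 ± 0.35 SE, n = 3 and 3). That contrast is the one that brought Mitf to attention, so the value is a description without a test. The probe was not detected on 2 of the 3 IFE arrays, and the size of the difference depended on the background step: it was 1.60 on the log2 scale without background correction, 1.68 with the deposited values and 1.97 with normexp at an offset of 50. Of the 4 lineage genes that could be tested, 1 (Mitf) passed an adjusted p of 0.05 in this contrast, where 4.8% of all 9545 genes did, and nothing is read from that count. In a bulk sample, fewer cells of a type and less RNA per cell cannot be told apart.

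Gli1+ cells had 5.24-fold more Mitf signal than IFE cells (a difference of 2.39 ± 0.39 SE on the log2 scale over 2 and 3 arrays, limma adjusted p = 0.0194). Here too Mitf was the 1 gene past the threshold among the 4 tested, against a background of 2.16% of all genes. The comparison uses the same IFE arrays as the contrast that singled Mitf out, so it is not independent of that choice. With the replicate number, taken as the mouse pool, as a block the difference was 2.34 and the adjusted p 0.0536, and the number of genes past the threshold fell from 206 to 67. Without IFE replicate 1, 2 or 3 the adjusted p was 0.0803, 0.0738 and 0.0754. Without Gli1+ replicate 2 the difference was 1.77 and without Gli1+ replicate 3 it was 3.01, each resting on 1 Gli1+ array.

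Between Gli1+ and CD34+ cells Mitf gave a log2 difference of -0.66 ± 0.39 SE (limma adjusted p = 0.422), and their ranges overlapped. None of the 4 tested lineage genes passed in this comparison (0 of 4, against 1.42% of all genes). With the mouse pool as a block, 1 gene of all those tested passed instead of 136. Without Gli1+ replicate 2 the Mitf difference was -1.28, since the array of replicate 3 lay below the CD34+ arrays, and without Gli1+ replicate 3 it was -0.04. Each of these values rests on 1 Gli1+ array, which gives no spread within that group.

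Kitl, the ligand of Kit that keratinocytes offer to melanocytes and mast cells, was the lineage gene whose array pattern came nearest to that of Mitf. Its brighter probe gave log2 intensities of 7.08, 6.54 and 7.65 on the CD34+ arrays, 7.56 and 6.14 on the Gli1+ arrays and 5.01, 5.81 and 5.76 on the IFE arrays. It was detected on 7 arrays, and all CD34+ and Gli1+ arrays lay above all IFE arrays. As with Mitf, Gli1+ replicate 2 was the higher of the pair, but among the CD34+ arrays Kitl was lowest in replicate 2, where Mitf was highest. The difference was 1.56 ± 0.44 SE between CD34+ and IFE cells and 1.33 ± 0.49 SE between Gli1+ and IFE cells (limma adjusted p = 0.194). The latter was 0.62 without Gli1+ replicate 2 and 2.04 without Gli1+ replicate 3. Gli1+ and CD34+ cells differed by -0.24 ± 0.49 SE (limma adjusted p = 0.845), a value that became 0.47 without Gli1+ replicate 3 and 0.05 without CD34+ replicate 3. The dimmer Kitl probe was detected on 1 array, CD34+ replicate 3, at 5.81, which was also the highest array of the brighter probe among CD34+ cells.

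The lineage receptor that had probes gave no signal above background. Ednrb, the endothelin receptor that melanoblasts need, had 3 probes, and none was detected on any array, with log2 intensities of 4.46 to 5.20 and detection p-values from 0.0564 upwards. Edn3, the endothelin that acts on it, was also detected on 0 of 8 arrays. Edn1, another endothelin, was detected on all 3 IFE arrays, on 1 CD34+ array and on 1 Gli1+ array.

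The enzymes that Mitf controls in pigment cells were undetected on every array. Dct, the dopachrome tautomerase of the eumelanin pathway, had log2 intensities of 4.69, 4.6 and 4.56 on the CD34+ arrays, 4.58 and 4.47 on the Gli1+ arrays and 4.62, 4.70 and 4.95 on the IFE arrays. Its lowest detection p was 0.1429, on IFE replicate 3, an array where Mitf was low. The 3 probes of Tyrp1, a melanosomal enzyme next to Tyr and Dct in that pathway, ranged from 4.37 to 5.54. The highest of these values, on Gli1+ replicate 3, had a detection p of 0.0576. On that array Mitf was the lower of the Gli1+ pair. Being below detection on an array bounds the level and does not show that the RNA is absent.

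Mlana, a small melanosome protein used as a melanocyte antigen, hovered at the detection limit. It was detected on 2 of 8 arrays, Gli1+ replicate 2 at 5.38 and CD34+ replicate 1 at 5.15, with detection p-values of 0.0363 and 0.0476 against the negative control beads. The other CD34+ arrays read 4.55 and 4.94, the other Gli1+ array 4.98 and the IFE arrays 4.87, 4.96 and 5.01, so the groups overlapped. On CD34+ replicate 2, where Mitf had its highest value, Mlana was not detected. The difference between CD34+ and IFE cells was -0.07 ± 0.28 SE, and between Gli1+ and IFE cells 0.23 ± 0.31 SE (limma adjusted p = 0.756).

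Gpnmb, a melanosome and lysosome glycoprotein that macrophages and osteoclasts also make, was detected in every sample. Its first probe, ILMN_2648669, read 10.46, 10.45 and 10.13 on the CD34+ arrays, 10.19 and 9.28 on the Gli1+ arrays and 9.70, 9.09 and 8.73 on the IFE arrays. The second, ILMN_2614655, read 8.0, 8.24 and 8.07, then 6.17 and 7.18, then 6.57, 5.75 and 5.51 in the same order of groups. Both probes were detected on all 8 arrays and placed every CD34+ array above every IFE array, by 1.17 ± 0.35 SE with the first and 2.16 ± 0.37 SE with the second.

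The Gpnmb probes parted over the Gli1+ cells. With the first probe Gli1+ replicate 2 reached the CD34+ range and replicate 3 fell among the IFE arrays, whereas with the second both Gli1+ arrays lay below all CD34+ arrays and replicate 3 was the higher. Gli1+ and IFE cells differed by 0.56 ± 0.39 SE with the first probe (limma adjusted p = 0.506) and by 0.73 ± 0.42 SE with the second (limma adjusted p = 0.415). Gli1+ and CD34+ cells differed by -0.61 ± 0.39 SE (limma adjusted p = 0.455) and by -1.43 ± 0.42 SE (limma adjusted p = 0.122). For the first probe, the difference from IFE cells was 0.10 without Gli1+ replicate 2 and 1.02 without replicate 3, and that from CD34+ cells -1.07 and -0.16. The other Gpnmb probes were detected on 2 arrays and on 1 array, all of them CD34+.

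Whether Mitf moved with the other lineage genes was described by likeness: each gene was centred on its own mean over the 8 arrays, and the root mean square of its differences from Mitf was taken in log2 units. Among 9544 other genes the median of this value was 1.498. Kitl ranked 140 (0.813), Gpnmb ranked 265 (0.959) and Mlana ranked 3457 (1.424). Dct, Tyrp1 and Ednrb were not ranked, since no probe passed the detection filter.

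The 6 genes nearest to Mitf were Hexa (0.199), a subunit of the lysosomal enzyme beta-hexosaminidase, Pi15 (0.248), a secreted protein of the CRISP family, the homeobox gene Dlx3 (0.297), Postn (0.321), the matrix protein periostin, the kinase gene Dapk2 (0.343) and the homeobox gene Hoxc13 (0.345), which is needed for hair shafts. Dlx3 and Hoxc13 are known from hair follicle keratinocytes. The Hexa arrays read 9.03, 9.43 and 8.70 in CD34+ cells, 8.88 and 7.75 in Gli1+ cells and 6.33, 5.96 and 6.55 in IFE cells, so CD34+ replicate 2 was the highest and Gli1+ replicate 3 the lower of its pair, as for Mitf. Pi15 was detected on no IFE array and was at least 5.52-fold higher in CD34+ cells and at least 4.15-fold higher in Gli1+ cells, taking for each IFE array the lowest level it could detect. These 6 were picked for their pattern, so their differences carry no test as a group.

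**Figure D2:**
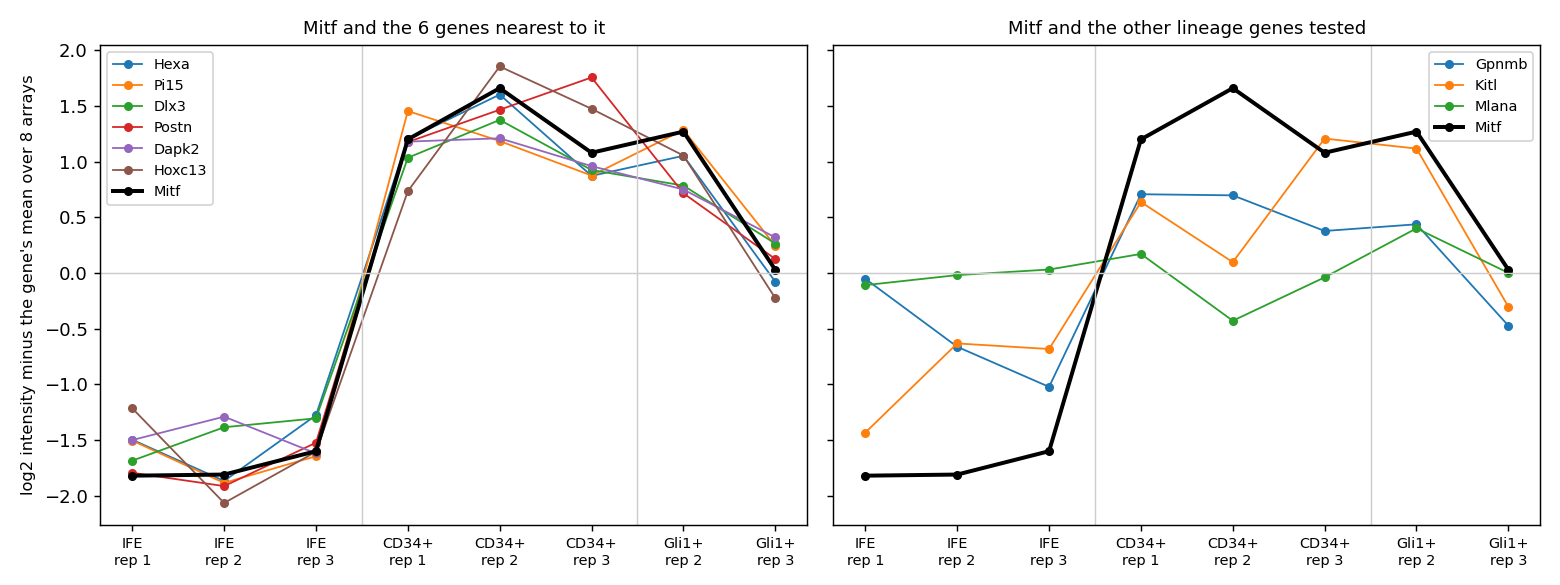
Normalised log2 intensity minus each gene's mean over the 8 arrays, by array. The 6 nearest genes (root mean square difference 0.199 to 0.345) were picked on these arrays for following the Mitf line. Mlana, which lay near the detection limit, stays near 0, and Gpnmb and Kitl move over a smaller range.

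The tested genes for pigment enzymes and melanosome proteins did not follow Mitf as a group, though several lay near the detection limit. Of 17 listed genes, 13 were tested, and between CD34+ and IFE cells 0 were higher and 1 lower, with a median log2 difference of -0.38 against -0.01 over all genes. Among the 13, Slc45a2, Trpm1, Mlph, Mc1r and Pmel were detected on 2 to 5 arrays, at values of 4.67 to 6.11. At such levels a difference could hardly show, which limits the count and the median. The lower one was Rab27a, a GTPase that ties melanosomes and other organelles to the transport machinery of the cell. It read 7.02, 7.68 and 7.33 in CD34+ cells and 8.84, 8.71 and 8.77 in IFE cells, a log2 difference of -1.43 ± 0.32 SE (limma adjusted p = 0.036, and 0.0729 with the mouse pool as a block). Leaving out any 1 of the CD34+ and IFE arrays gave adjusted p-values for Rab27a of 0.0675 to 0.131. Tyr, the rate-limiting enzyme of melanin synthesis, Oca2, Gpr143 and Syt4 were detected on no array.

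Slc24a5, an ion exchanger of melanosomes, was the 1 gene of that list past the threshold between Gli1+ and IFE cells (1 of 13 higher, 0 lower, median -0.31 against -0.05 over all genes). Its log2 intensity was 7.26 and 6.67 in Gli1+ cells, 6.32, 6.22 and 5.74 in CD34+ cells and 4.83, 5.36 and 5.02 in IFE cells. The groups did not overlap and Gli1+ cells lay highest, though they differed from CD34+ cells by 0.87 ± 0.34 SE without passing the threshold (limma adjusted p = 0.225). The difference between Gli1+ and IFE cells was 1.89 ± 0.34 SE (limma adjusted p = 0.026, and 0.0619 with the mouse pool as a block). Without CD34+ replicate 2, which enters the shared spread, the adjusted p was 0.055, and without IFE replicate 1, 2 or 3 it was 0.101, 0.0598 and 0.0964. Between CD34+ and IFE cells Slc24a5 differed by 1.02 ± 0.30 SE (limma adjusted p = 0.0962). Pmel, which forms the melanosome matrix, was detected on 5 arrays at 4.79 to 5.81, and Slc45a2, a melanosome transporter, on 2 arrays.

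Among the Mitf family and its regulators, 13 of 20 listed genes were tested, and 2 were higher in CD34+ than in IFE cells (median -0.10). Sox9, a transcription factor of bulge keratinocytes that can also act on Mitf, read 9.99, 10.04 and 9.86 in CD34+ cells, 8.89 and 9.20 in Gli1+ cells and 7.90, 7.73 and 7.0 in IFE cells. Its difference between CD34+ and IFE cells was 2.42 ± 0.31 SE (limma adjusted p = 0.00202). Tfap2b, an AP-2 transcription factor, was higher by 1.69 ± 0.31 SE (limma adjusted p = 0.014). Without CD34+ replicate 1 or 2 or IFE replicate 2 or 3 its adjusted p was 0.058 to 0.0766.

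Of the factors that activate Mitf in melanocytes, Pax3, a paired-box factor, was detected on 1 array and Lef1 on none. Creb1 and Ctnnb1, from the same list, were detected on all 8 arrays, at 9.25 to 10.04 and at 11.21 to 12.25. They differed by -0.10 ± 0.29 SE and 0.42 ± 0.29 SE between CD34+ and IFE cells. Tfec, a close relative of Mitf, was detected on no array. Tfe3 and Tfeb, the broadly expressed relatives that drive lysosome genes, were detected on all 8 arrays. Tfe3 was uneven in Gli1+ cells, at 7.30 in replicate 2 and 9.87 in replicate 3, against 7.17 to 8.50 elsewhere. Between Gli1+ and IFE cells 1 of the 13 regulators was lower, the kinase gene Gsk3b (-1.43 ± 0.31 SE, limma adjusted p = 0.048, and 0.123 with the mouse pool as a block). That call was lost without Gli1+ replicate 3 (adjusted p = 0.0753), any CD34+ array (0.0741 to 0.0853) or any IFE array (0.103 to 0.153).

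Hexa stood alone among the lysosome genes that Mitf, Tfe3 and Tfeb are known to bind. Of 24 listed genes 19 were tested. Between CD34+ and IFE cells 1 was higher and 0 lower with a median of 0.08, and between Gli1+ and IFE cells 1 was higher and 0 lower with a median of -0.06. Hexa was that gene both times, by 2.77 ± 0.36 SE (limma adjusted p = 0.00241) and by 2.03 ± 0.40 SE (limma adjusted p = 0.0396, and 0.0955 with the mouse pool as a block). The Gli1+ call was lost without any 1 CD34+ array (adjusted p = 0.0606 to 0.0659) or IFE array (0.0964 to 0.125). Of 12 tested genes among other reported Mitf targets, 0 passed between CD34+ and IFE cells (median -0.54) and 0 between Gli1+ and IFE cells (median -0.49). The largest differences between CD34+ and IFE cells there were -1.04 ± 0.28 SE for Cdkn1a, a cell cycle inhibitor, and -0.87 ± 0.36 SE for Hif1a, the hypoxia factor.

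**Figure D3:**
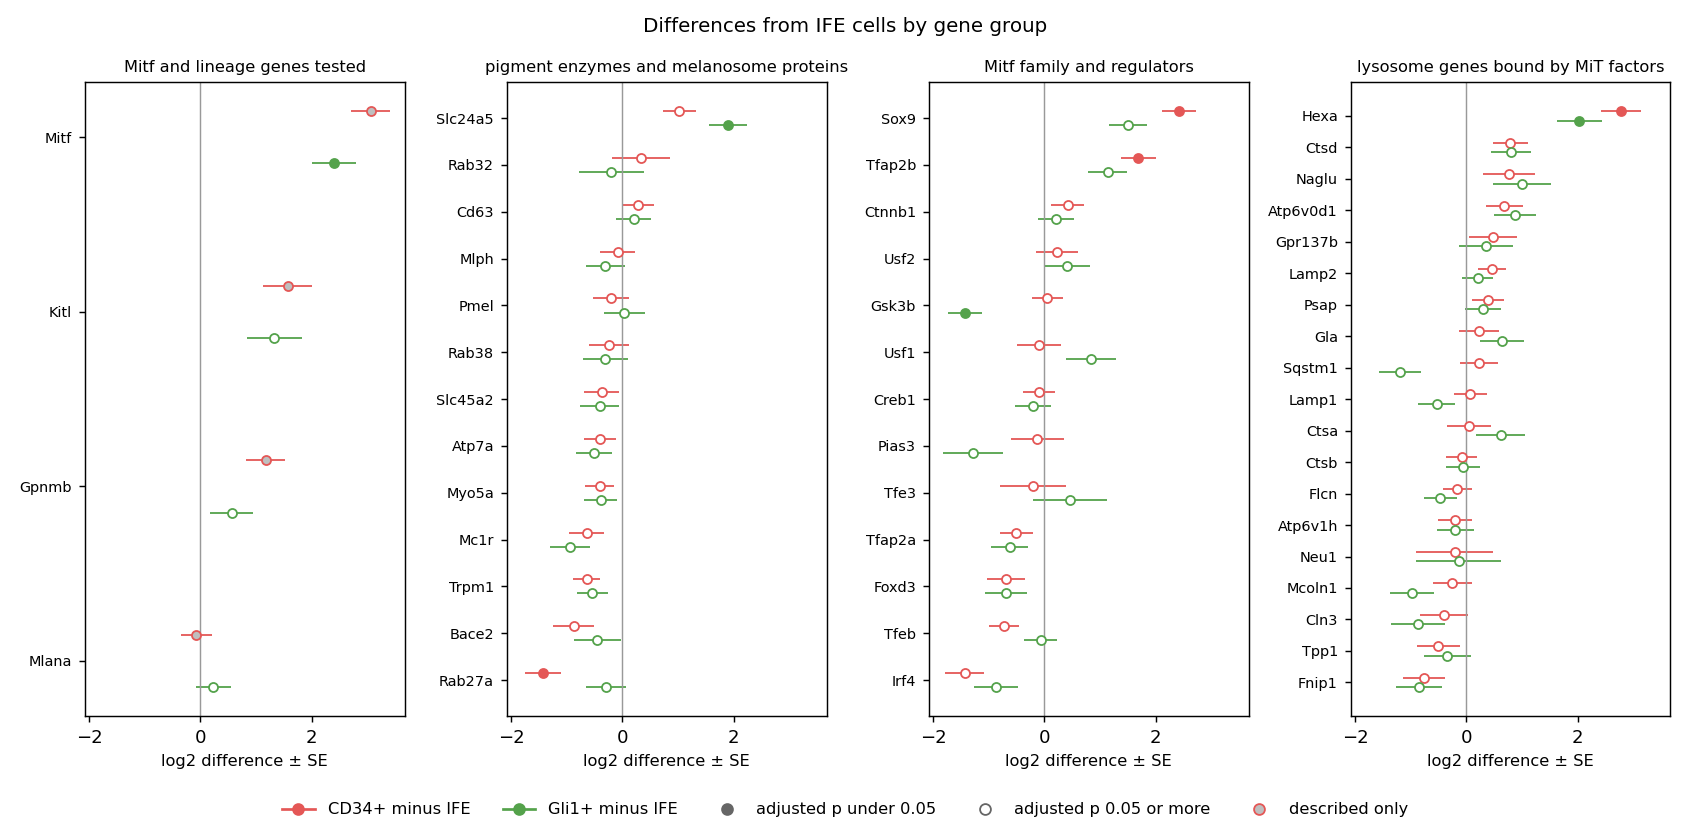
Log2 differences ± SE from IFE cells for the 4 tested lineage genes and 3 gene groups, CD34+ cells in red and Gli1+ cells in green, with filled points past an adjusted p of 0.05 and grey points described without a test. Mitf, Sox9 and Hexa lie far to the right in CD34+ cells, while most melanosome and lysosome genes lie near 0.

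Signals that keratinocytes and their neighbours send to melanocytes were mostly not measurable: of 22 listed genes besides Kitl, 8 were tested. Tgfb2, a TGF-beta ligand linked to quiescence of melanocyte stem cells, read 8.89 and 9.28 in Gli1+ cells, 7.47, 7.21 and 6.79 in CD34+ cells and 7.07, 6.80 and 6.62 in IFE cells. Gli1+ cells lay above both other groups, by 2.25 ± 0.33 SE over IFE cells (limma adjusted p = 0.0121) and by 1.93 ± 0.33 SE over CD34+ cells (limma adjusted p = 0.0299, and 0.0774 with the mouse pool as a block). Without IFE replicate 2 or 3 the first adjusted p was 0.0541 and 0.0603, and without any 1 CD34+ or IFE array the second was 0.0565 to 0.105.

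Wnt3a was the 1 niche gene lower in CD34+ than in IFE cells (median of the list 0.20), by 1.90 on the log2 scale (a difference of -1.90 ± 0.46 SE, limma adjusted p = 0.0453, and 0.0684 with the mouse pool as a block). The call for Wnt3a was lost without CD34+ replicate 1 or 2 or any IFE array (adjusted p = 0.123 to 0.181). Between Gli1+ and IFE cells the list had 1 higher gene, Tgfb2, and a median of -0.32.

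Melanocyte markers lay at or near background in all groups. Of 7 markers (Dct, Tyrp1, Mlana, Tyr, Pmel, Sox10 and Slc45a2) 6 had a probe, and Dct, Tyrp1 and Tyr were detected on no array, Mlana and Slc45a2 on 2 and Pmel on 5. Their summed intensity was 157.9 to 204 on the CD34+ arrays, 191.1 to 201.5 on the Gli1+ arrays and 168 to 224.1 on the IFE arrays, sums made up largely of readings near background, which could not have shown a small difference. The list holds neither Slc24a5 nor Gpnmb, whose log2 differences between CD34+ and IFE cells were 1.02 and 1.17.

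Other cells that use Mitf or Gpnmb were checked in the same way. For macrophages and osteoclasts, 3 of 14 markers were tested and 0 passed in any comparison. Their summed intensity was 337.8 to 434.2 in CD34+ cells, 377 to 443.2 in IFE cells and 502.3 and 1057.2 in Gli1+ cells. The highest of these sums was on Gli1+ replicate 3, where Aif1, a macrophage and Langerhans cell gene, read 9.31 against 5.30 in replicate 2 and Mitf was the lower of the pair. For mast cells 3 of 10 markers were tested, and the other 7, among them Cpa3, were detected on no array. The mast cell sums of CD34+ cells (380.6 to 627.8) overlapped those of IFE cells (516.2 to 565.8), with Gli1+ cells at 648.8 and 669.9. Hdc, which makes histamine, read 6.11, 8.28 and 7.53 in CD34+ cells, 5.93 and 6.19 in Gli1+ cells and 5.45, 5.94 and 4.95 in IFE cells. Its difference between CD34+ and IFE cells was 1.86 ± 0.51 SE (limma adjusted p = 0.0734). Cma1, detected on all 8 arrays, went the other way, at 6.15, 6.15 and 6.51 in CD34+ cells and 7.28, 7.02 and 7.02 in IFE cells. That difference was -0.84 ± 0.26 SE (limma adjusted p = 0.117). Hpgds, a prostaglandin synthase, was lower in CD34+ than in IFE cells (-1.53 ± 0.28 SE, limma adjusted p = 0.0154). Without any 1 of the CD34+ arrays or IFE replicate 2 or 3 that adjusted p was 0.0551 to 0.0727. Hpgds was also higher in Gli1+ than in CD34+ cells (1.85 ± 0.32 SE, limma adjusted p = 0.0299, and 0.0991 with the mouse pool as a block).

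Of the Schwann cell and neural crest markers 5 of 12 were tested and 0 passed (median -0.84 between CD34+ and IFE cells). Their sum was lower in CD34+ cells (1363 to 1448.8) than in IFE (2220.8 to 2715.5) and Gli1+ cells (2127.4 to 2155.4). Egr2, also an immediate early gene, was detected on all 8 arrays at 9.83 to 10.96 and made up most of the intensity of that sum, so the sum mainly follows this gene (-0.84 ± 0.26 SE between CD34+ and IFE cells, limma adjusted p = 0.113). The 1 tested endothelial gene of 8, Egfl7, differed by -0.04 between CD34+ and IFE cells.

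Part of the bulge keratinocyte markers were higher in CD34+ and in Gli1+ than in IFE cells. All 14 bulge genes were tested, and 8 were higher in CD34+ than in IFE cells (median 2.23, against 4.8% of all genes called in either direction), among them Lgr5, at least 11.54-fold, and Fzd2, at least 10.05-fold. In Gli1+ cells 6 of the 14 were higher than in IFE cells (median 1.46, against 2.16% of all genes), and Tcf7l1, which did not pass, differed by -0.78 ± 0.54 SE. All 6 Gli1+ calls were lost with only the compared groups in the fit (limma adjusted p = 0.0579 to 0.0766). Those of Dkk3, Postn and Fzd2 were also lost without any 1 IFE array (0.0518 to 0.061), and that of Lgr5 without IFE replicate 3 (0.0515). Among the 8 CD34+ calls, that of Itgb6 was lost without any 1 CD34+ or IFE array (limma adjusted p = 0.0687 to 0.113). The summed bulge intensity was 17093 to 21321 in CD34+ cells, 11590 and 13165 in Gli1+ cells and 7174.6 to 7609.4 in IFE cells. The group means of Mitf had this order too, but its Gli1+ and CD34+ arrays overlapped. The summed fibroblast and dermal papilla markers had the same order of groups. Cd34 itself is on that list and was used in the sort. Lgr5, Lhx2 and Fzd2 were detected on no IFE array and passed the detection filter through the other groups. The bulge counts therefore support nothing by themselves.

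Of 12 fibroblast and dermal papilla markers 3 were tested, and all 3 (Col6a1, Col1a2 and Sparc) were higher in CD34+ than in IFE cells (median 2.83), while Col3a1 and Pdgfra were detected on no array. Col6a1, a collagen VI chain, was detected on no IFE array and passed the detection filter through the other groups, so the count is not that of all listed markers and supports nothing by itself. The Col1a2 call was lost without any 1 of the CD34+ or IFE arrays (adjusted p = 0.0612 to 0.0905). Their summed intensity was 1585.3 to 1935.2 in CD34+ cells, 703 to 735.7 in Gli1+ cells and 399.9 to 612.6 in IFE cells. In Gli1+ cells 0 of the 3 passed against IFE cells (median 0.99). Against CD34+ cells 2 of the 3 were lower, Col6a1 and Sparc (median -1.99, with 1.42% of all genes called). Both of these calls were lost with the mouse pool as a block (limma adjusted p = 0.0923 and 0.0991). Over Gli1+ replicates 2 and 3 the listed markers did not share 1 pattern. Col1a2, a collagen I chain, read 7.23 and 4.65, Sparc 8.26 and 8.05, and Col6a1 5.69 and 5.90. Dcn, which was not tested, was detected on 1 Gli1+ array and on no other, with a highest value of 7.75. Basal keratinocyte markers showed 0 of 10 past the threshold between CD34+ and IFE cells, with a median of 0.08. What part the cells behind these markers have in the Mitf signal was not tested.

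**Figure D4:**
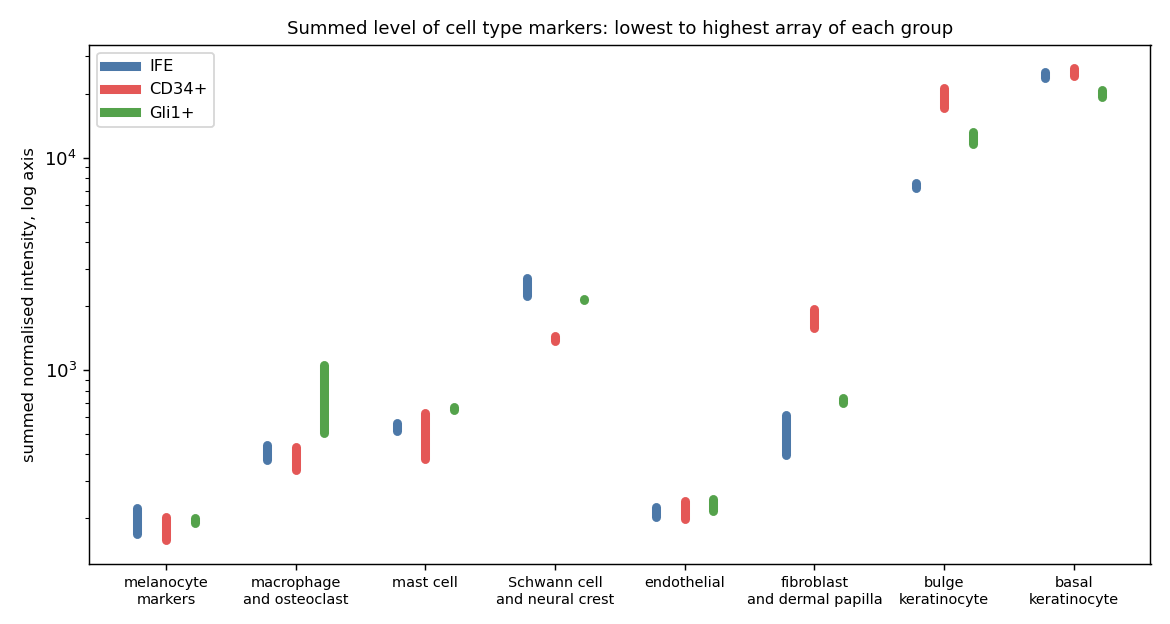
Summed normalised intensity of each marker list, on a log axis, as a bar from the lowest to the highest array of each group. Melanocyte markers overlap between all groups (157.9 to 224.1), while bulge keratinocyte and fibroblast markers are highest in CD34+ cells.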

How the data were processed

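Per the labels, RNA of 8 sorted samples was extracted with Trizol, labelled by the Nugen ovation-pico protocol and hybridised to Illumina MouseRef-8 arrays, and GenomeStudio 2010.3 is named in the submitters' processing notes. Per the file headers, the deposited matrix gives for every probe a mean bead intensity, its standard error, the count of beads and a detection p-value, neither background-corrected nor normalised. The deposited log2 table equals the log2 of those intensities within 5.5282e-05 and served as an alternative. The labels and array files name no genome build or chip; only the RefSeq promoter windows carry a build.

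Intensities were corrected and quantile normalised with neqc (limma 3.58.1, R 4.3.3, offset 16, negative controls inferred from detection p-values). Of 25697 probes, 23978 had 1 symbol and 1719 none. The filter kept probes detected (p under 0.05) on 2 or more arrays (14252, of which 13361 had a gene), and the brightest probe stood for each of 9545 genes. Of the 15 lineage probes 6 passed. All 8 arrays were fitted together by lmFit and eBayes, with 5 residual degrees of freedom and 4.84 from the prior, two-sided, with Benjamini-Hochberg adjustment over all genes in each comparison. The number of arrays limits the precision, and p-values measure the spread between pools of 2 mice.

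Lineage genes, 13 gene lists, motifs and alternatives were chosen with earlier results of these data known. Every lineage probe was named. From each other list up to 4 genes past the threshold were named, largest first, or up to 2 as values. Further genes (Slc24a5 in CD34+ cells, Hdc, Cma1, Creb1, Ctnnb1, undetected and unevenly expressed genes, Krt5) were chosen after their values were seen. The series' design text pools 2 mice per replicate and sorts them into the groups, so samples with 1 number were taken to share a mouse pool. The correlation of their deviations from group means was -0.031 to 0.091 over 7 pairs.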

Additional observations from a re-analysis of the deposited data

How the results depend on the processing

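Mitf was higher in CD34+ than in IFE cells under all 19 alternatives (log2 difference 1.60 to 3.17). Between Gli1+ and IFE cells its difference was past the threshold at 2.39 but not with the deposited log2 values (1.26, adjusted p = 0.0638), with only the compared groups (2.391, 0.0815) or with the replicate block (2.343, 0.0536), and it was 1.771 to 3.01 with single arrays left out. Between Gli1+ and CD34+ cells single arrays moved the Mitf difference from -1.282 to -0.042. The count of lineage genes past the threshold between CD34+ and IFE cells was 1, also without any 1 CD34+ or IFE array. It was 2 with normexp at an offset of 50, without background correction, with the deposited values, with the mean of probes and with each probe on its own. With only the compared groups it was 3. The same settings called 546, 568, 389 and 502 of all genes, 562 of 13361 probes, and 820 of all genes, against 458 in the main fit. Nothing is read from the lineage counts. Between Gli1+ and IFE cells the lineage count was 1, and 0 or 1 without single CD34+ or IFE arrays. It was 0 with the deposited values (170 of all genes), with only the compared groups (6) and with the replicate block (67). Between Gli1+ and CD34+ cells the lineage count was 0, also without any 1 CD34+ or IFE array. Over the 19 alternatives the log2 difference between CD34+ and IFE cells was 0.954 to 1.436 for Gpnmb and 0.733 to 1.839 for Kitl. These are values without a test, since results of that contrast were known when the members were chosen. Signs turned for Kitl between Gli1+ and CD34+ cells (0.474 without Gli1+ replicate 3, 0.047 without CD34+ replicate 3, and -0.944 to 0.474 over all single arrays) and for Mlana between CD34+ and IFE cells (0.091 without CD34+ replicate 2, from -0.206 over all single arrays). Over all genes, 458, 206 and 136 passed in the order CD34+ minus IFE, Gli1+ minus IFE and Gli1+ minus CD34+. With only the compared groups these were 820, 6 and 1, and with the replicate block 346, 67 and 1. Gli1+ minus CD34+ gave 217 with normexp at an offset of 50 and 209 without background correction. Without single arrays the counts ran from 189 to 820, from 39 to 1233 and from 1 to 1196. Where an array left a single Gli1+ sample, that sample was assumed to vary like the other groups. Scaling moved the split of higher to lower genes from 281 and 177 to 310 and 91 (median centring) and 306 and 83 (deposited values) in CD34+ minus IFE. In Gli1+ minus IFE it moved from 124 and 82 to 174 and 36, to 171 and 49 (cyclic loess) and to 158 and 12 in the same order. In Gli1+ minus CD34+ it moved from 55 and 81 to 106 and 82 (cyclic loess) and 54 and 50 (deposited values). Median centring moved the median of all genes in CD34+ minus IFE from -0.014 to 0.126. The cause of these changes was not tested. A block by bead chip was not run, since the sources used here name no chip. Levels near 5.08 to 5.62 have no reliable order.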
